A study of Homo sapiens with 12 samples.

Results

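DNA repair genes encode the proteins that recognise damaged DNA, signal its presence and restore the sequence. Here 39 such genes, chosen by name, were followed in uveal melanoma cells that overexpress the long noncoding RNA CANT1. Uveal melanoma is a tumour of the pigmented layer of the eye, and CANT1, or CASC15-NT1, is a transcript of the CASC15 locus, unrelated to the nucleotidase gene that has the same symbol. Of the 39 listed genes, 36 had a probe set annotated to that gene alone, among 18132 genes measured in this way. BRCA2, FANCA and FANCD2 were not analysed here. Each gene was read from the probe set with the highest mean signal over all arrays. PMS2 never exceeded a signal of 82.6 and was left out as too dim, since a gene was tested only where 3 or more arrays read 100 or higher. This left 35 genes that were tested with all arrays. BRIP1 reached that signal only on replicate 1 arrays, so 34 genes were tested on replicates 2 and 3.

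Total RNA was hybridised to 12 Affymetrix PrimeView arrays, 3 in each of 4 groups: MUM2B cells overexpressing CANT1, wild type MUM2B cells, OCM1 cells overexpressing CANT1 and wild type OCM1 cells. The controls are the wild type lines, and the labels describe no empty vector. Control arrays of replicate 1 are titled wild type, whereas those of replicates 2 and 3 have the genotype label control. Both are called wild type here. The growth label of the replicate 1 arrays mentions selection of the overexpressing cells with puromycin, and that of replicates 2 and 3 mentions medium with serum, so each group is split into 1 and 2 arrays. Whether replicates are separate cultures, and whether an overexpressing line is 1 clone, is not stated. P-values therefore measure the spread between these arrays alone, and that spread may be technical. The small number of arrays limits precision.

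Double-strand breaks are repaired by homologous recombination, which copies an intact sister DNA molecule and is used in dividing cells, or by end joining, which ligates broken ends directly. Fanconi anaemia proteins unhook DNA strands that are linked to each other, and excision and mismatch repair pathways remove damaged or mismatched bases. The kinases ATM and ATR are activated at breaks and at stalled replication forks, and pass the signal on to CHEK2 and CHEK1. Many genes of homologous recombination, mismatch repair and the Fanconi pathway are transcribed mainly in S phase.

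Printed here are the promoters of 3 of the genes that passed in MUM2B on replicates 2 and 3. They run from 250 bases before to 50 bases after the annotated start, from RefSeq on build GRCh38.p14. On replicates 2 and 3, EXO1, at chr1:241847954-241848253 on the plus strand, was lower with CANT1 in both lines, CHEK2, at chr22:28741771-28742070 on the minus strand, was higher in MUM2B, and RAD51C, at chr17:58692323-58692622 on the plus strand, had the largest decrease in MUM2B. On replicate 1 each of these 3 genes had the opposite sign in MUM2B. For EXO1 and RAD51C the table lists 2 promoters, and the first is shown. Capitals mark an E2F-type site in EXO1 and CCAAT boxes, read on the opposite strand as ATTGG, in CHEK2.
EXO1: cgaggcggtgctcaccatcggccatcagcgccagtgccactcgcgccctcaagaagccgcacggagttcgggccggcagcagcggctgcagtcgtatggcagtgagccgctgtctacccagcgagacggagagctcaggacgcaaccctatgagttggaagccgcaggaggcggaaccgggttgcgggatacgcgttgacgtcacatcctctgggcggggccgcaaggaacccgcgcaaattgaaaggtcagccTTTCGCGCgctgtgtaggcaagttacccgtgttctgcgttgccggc
CHEK2: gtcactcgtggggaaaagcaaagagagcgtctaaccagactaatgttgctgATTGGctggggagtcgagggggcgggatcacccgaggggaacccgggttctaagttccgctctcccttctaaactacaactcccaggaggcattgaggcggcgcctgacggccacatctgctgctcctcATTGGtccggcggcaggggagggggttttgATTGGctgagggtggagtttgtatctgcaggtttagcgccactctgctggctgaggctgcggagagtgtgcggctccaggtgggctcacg
RAD51C: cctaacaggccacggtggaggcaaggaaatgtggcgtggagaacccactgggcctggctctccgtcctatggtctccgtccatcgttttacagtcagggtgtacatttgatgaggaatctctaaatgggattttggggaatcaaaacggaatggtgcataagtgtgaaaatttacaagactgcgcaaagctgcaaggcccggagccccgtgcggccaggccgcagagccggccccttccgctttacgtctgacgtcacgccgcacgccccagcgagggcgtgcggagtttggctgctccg

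The EXO1 promoter held 1 E2F-type site and the CHEK2 promoter 3 CCAAT boxes, whereas no searched motif matched in the RAD51C window. The BRCA1 window, which is not printed, held no match either, although BRCA1, like EXO1, was lower in both lines. Searched on both strands were the E2F-type words TTTGGCGC, TTTGCCGC, TTTCGCGC and TTTCCCGC, the core of the cell cycle homology region (TTTGAA and TTCGAA) and the CCAAT box (CCAAT). The first promoter listed for each of 35 of the 39 genes was searched, and no searched word contains another. An E2F-type word occurred in 8 of these 35 promoters (22.9%), against 4.44% of 15842 promoters of protein-coding genes and 3.33% of all 27305. CCAAT boxes occurred in 18 (51.4%), against 36.4% of promoters of protein-coding genes. The homology region core occurred in 5 (14.3%), against 13.5%. Among the 12 genes with a listed promoter that were lower with CANT1 in either line on replicates 2 and 3, 2 (16.7%) held an E2F-type word, as did 3 of 16 (18.8%) that passed in neither line.

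**Figure D1:**
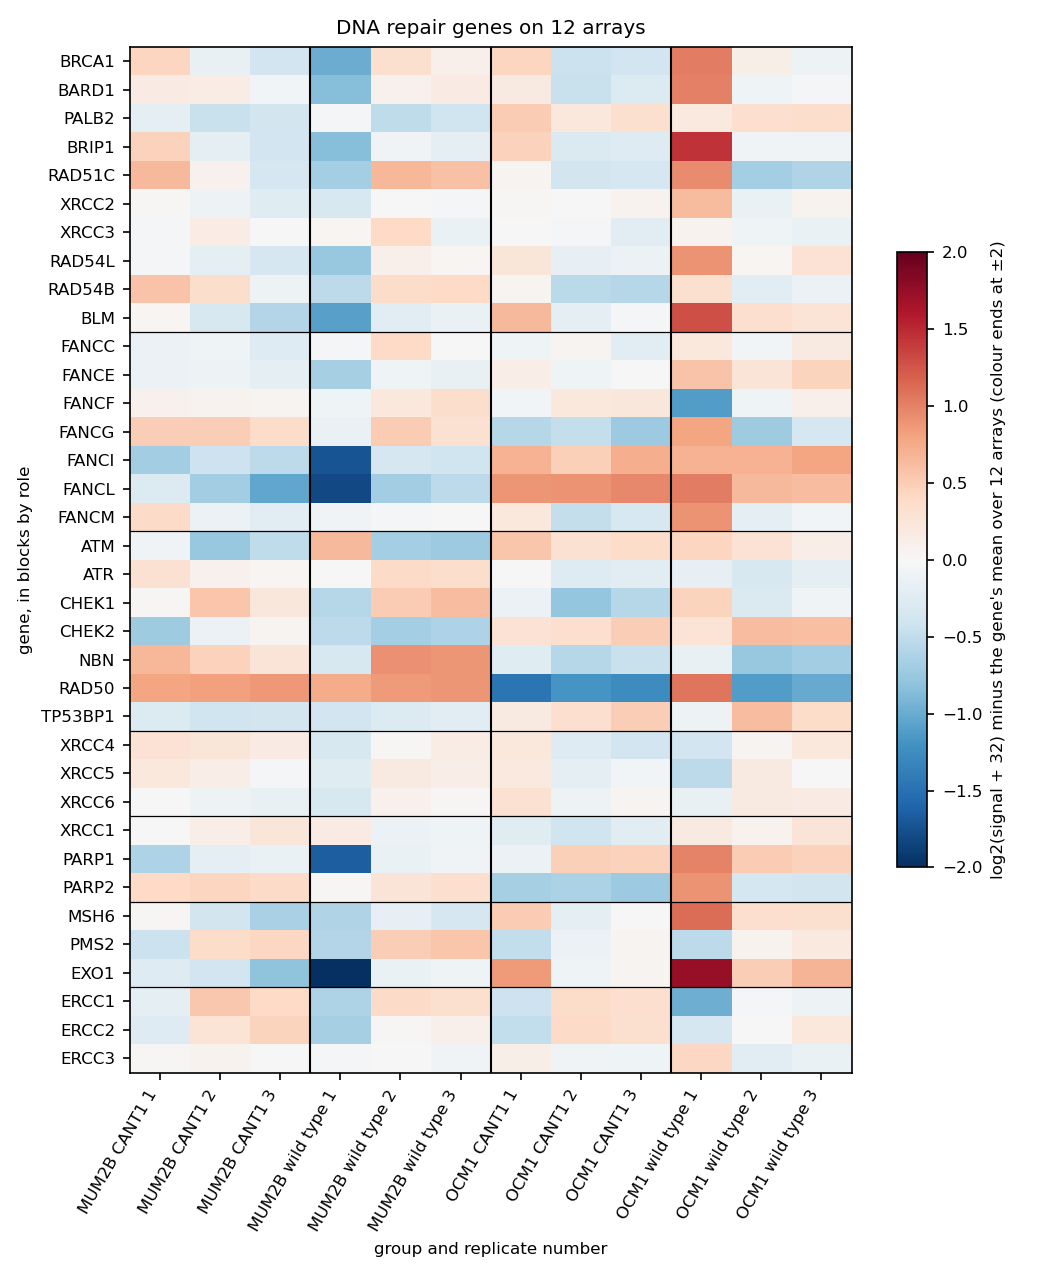
Level of 36 DNA repair genes on the 12 arrays, as log2(scaled signal + 32) minus the mean of each gene over the arrays, with groups along the horizontal axis, genes down the vertical axis in blocks by role, and black lines between blocks. Wild type replicate 1 of OCM1 and of MUM2B stand out as the reddest and bluest columns, and RAD50 is blue on 5 of the 6 OCM1 arrays.

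Several arrays differ in ways that bear on these genes. Wild type OCM1 replicate 1 correlated with the other OCM1 arrays at a mean r of 0.828 across genes, while the corresponding r of the remaining 11 arrays was 0.936 to 0.978. RAD50, a subunit of the complex that tethers broken ends, had a signal of 1630 on that array, against 256 to 360 on the other OCM1 arrays and 1287 to 1419.8 on the MUM2B arrays. The summed signal of 8 pigment cell markers was 78283 to 88268 on CANT1 arrays of OCM1 and 14728 to 79983 on its wild type arrays, but at most 1372 on any MUM2B array, where MLANA did not exceed 55.5 and 3 of the 8 stayed below 100 throughout. The lowest OCM1 value was that of wild type replicate 1. On MUM2B arrays the epithelial markers KRT18 (11587 to 15101) and KRT8 (2929 to 7929) and the endothelial marker CDH5 (2385 to 4634) were above OCM1, but the epithelial markers EPCAM and CDH1 did not exceed 61.4 and the endothelial marker VWF overlapped with OCM1. In such bulk RNA, fewer cells of a type and less RNA per cell cannot be told apart. The 1 probe set for CASC15 read 12.9 to 17.9 on all 12 arrays, near background, and whether it lies in the CANT1 transcript is not known here, so it does not check the labels. The signal of ACTB at its 3′ end over its 5′ end, a measure of RNA integrity, ranged from 2.14 to 2.49 in log2 on the replicate 1 arrays and from 0.472 to 0.909 on the others. Replicates 2 and 3 of a group correlated at r = 0.994 to 0.996. Differences are in log2 after adding 32 to the scaled signal, a step that understates the change of dim genes, ± stands for the standard error, and array values are scaled signals listed in the order of replicates 1, 2 and 3.

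With all 12 arrays, no repair gene passed the test between CANT1 and wild type cells in either line. Limma, with the labelled set as a term and Benjamini-Hochberg adjustment over 12715 genes at 0.05, called 0 of 35 in MUM2B (background 0% of all genes) and 0 of 35 in OCM1 (background 0.118%, with 0.102% higher and 0.0157% lower). At unadjusted p under 0.05 there was 1 member in MUM2B and there were 5 in OCM1. The difference between the lines in the CANT1 effect called 0 of 35 as well (background 0.0472%, with 0.0393% higher and 0.00786% lower), and 3 members had an unadjusted p under 0.05. The median difference of the members was 0.084 in MUM2B and −0.15 in OCM1, against −0.0064 and 0.0049 over all genes. On simulated arrays, with noise drawn independently per gene and array, this model found 58.5% of planted OCM1 changes of log2 1.

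The 3 smallest p-values in each direction are given here, although none passed. ERCC2, a helicase that opens DNA around bulky lesions, stood at 0.34 ± 0.12 in MUM2B (limma adjusted p = 1.00), followed by CHEK2 (0.35 ± 0.16) and ERCC1 (0.23 ± 0.11). The ERCC2 signal in MUM2B was 378, 564 and 638 on CANT1 arrays against 279, 466 and 495 on wild type arrays, with overlap between the groups. On the lower side in MUM2B were FANCC (−0.28 ± 0.15), ATM (−0.19 ± 0.23) and ATR (−0.11 ± 0.14). The FANCC signal in MUM2B was 179, 184 and 161 on CANT1 arrays against 192, 271 and 198 on wild type arrays, with every CANT1 array below every wild type array. ATM turned to 0.15 without MUM2B wild type replicate 1. In OCM1, ERCC1, which forms a nuclease with ERCC4, stood at 0.46 ± 0.11 (limma adjusted p = 0.184) and the scaffold XRCC1 at −0.46 ± 0.12 (limma adjusted p = 0.227). FANCF (0.49 ± 0.21) and ERCC2 (0.11 ± 0.12) completed the higher side, and PARP2 (−0.73 ± 0.27) and FANCE (−0.40 ± 0.16) the lower. The 3 CANT1 arrays lay wholly above the 3 wild type arrays of MUM2B for XRCC4, PARP2 and ERCC3 and wholly below them for FANCC, which is 4 of 35 (background 4.78%, with 2.82% above and 1.96% below). In OCM1 they lay wholly below for FANCE, RAD50, XRCC1 and PARP2 and wholly above for 0 members, again 4 of 35 (background 11.5%, with 6.5% above and 5% below). Without OCM1 wild type replicate 1, limma again called 0 of 34 members in MUM2B (background 0%) and in OCM1 (background 1.1%, with 0.802% higher and 0.302% lower). For the difference between effects it called 0 of 34 (background 0.278%, with 0.238% higher and 0.0397% lower).

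Within replicates 2 and 3, more repair genes were lower than higher in CANT1 cells of both lines. In MUM2B, limma called 6 lower and 1 higher of 34 tested (background 25% of 12105 genes, with 10.7% lower and 14.4% higher). RAD51C, NBN, BRCA1, EXO1, RAD54L and ATR fell, and CHEK2 rose. In OCM1, 10 were lower and 1 was higher (background 23.3%, with 9.63% lower and 13.7% higher). EXO1, CHEK1, XRCC1, XRCC4, BLM, MSH6, BRCA1, RAD54B, FANCE and PARP2 fell, and ERCC1 rose. BRCA1 and EXO1 were the 2 members lower in both lines, as were 223 of all genes tested. The median of the members was −0.12 in MUM2B and −0.15 in OCM1, against 0.0046 and 0.038 over all genes, and 24 of 34 lay below zero in each line, as did 49.2% and 43.5% of all genes.

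These counts come from 2 arrays per group and some arrays decide them. The MUM2B count of 6 lower was 2 without CANT1 replicate 3 or wild type replicate 2 of MUM2B. Over all genes, 1291 were lower in MUM2B, and 361 and 416 without these arrays. In OCM1 the count of 10 lower was 1 without CANT1 replicate 2 or wild type replicate 3, and 6 without CANT1 replicate 3 or wild type replicate 2. Over all genes, 1166 were lower in OCM1, and 475, 549, 772 and 683 without these arrays in turn. The OCM1 count of 1 higher was 0 without CANT1 replicate 2 or wild type replicate 3 of OCM1 and 3 without either MUM2B CANT1 array, and the MUM2B count of 1 higher was 2 without MUM2B CANT1 replicate 2. Over all genes, 1656 were higher in OCM1, with 858 and 1061 without these OCM1 arrays and 1715 and 1712 without the MUM2B ones. In MUM2B 1741 genes were higher, and 1755 without CANT1 replicate 2. Asking for at least 1.5-fold as well left RAD51C lower and CHEK2 higher in MUM2B, and EXO1 lower in OCM1. On simulated arrays, with noise drawn independently per gene and array, changes of log2 0.5 were found in 27.7% of cases in MUM2B and 37.5% in OCM1.

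**Figure D2:**
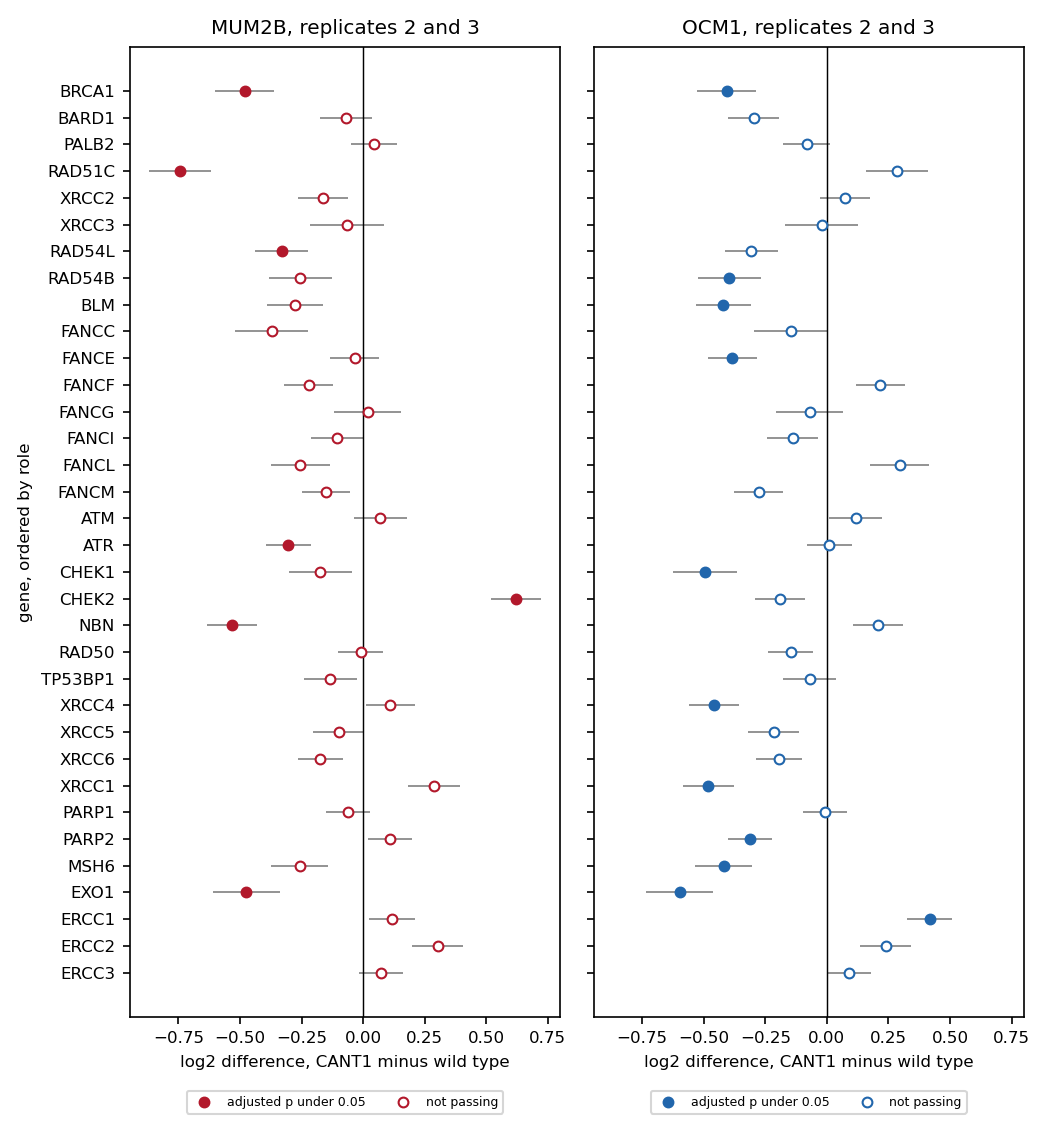
CANT1 minus wild type in MUM2B (left panel) and OCM1 (right panel) on replicates 2 and 3, in log2, for 34 repair genes ordered by role down the vertical axis, with bars for the standard error and filled points for a limma adjusted p under 0.05. RAD51C at −0.74 and CHEK2 at 0.62 are the extremes in MUM2B, and EXO1 at −0.60 and ERCC1 at 0.42 in OCM1.

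Homologous recombination genes held 3 of the 6 decreases in MUM2B and 3 of the 10 in OCM1, of 9 tested in each (33.3%, against 10.7% and 9.63% of all genes lower). RAD51C acts in the strand exchange step of homologous recombination. Its signal in MUM2B was 2713, 1819 and 1359.7 on CANT1 arrays against 1066, 2727 and 2585 on wild type arrays. On replicates 2 and 3 the CANT1 arrays lay below both wild type arrays, whereas on replicate 1 the order was the other way. The difference on replicates 2 and 3 was −0.74 ± 0.12, or 1.67-fold lower (limma adjusted p = 0.00230). The RAD51C call was kept in all 18 alternatives. In OCM1 the RAD51C signal was 1796, 1323 and 1357 on CANT1 arrays against 3348, 1067 and 1123 on wild type arrays. Both CANT1 arrays of replicates 2 and 3 were above the wild type ones there, without passing (0.28 ± 0.12, limma adjusted p = 0.125).

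BRCA1, the scaffold that promotes resection of broken ends together with BARD1, fell in both lines. Its MUM2B signal was 878, 578 and 491 on CANT1 arrays against 309.7, 820.4 and 698 on wild type arrays. In OCM1 the BRCA1 signal was 886, 474 and 492 on CANT1 arrays against 1346, 706 and 599.7 on wild type arrays. On replicates 2 and 3 both CANT1 arrays lay below both wild type arrays in each line, while wild type replicate 1 of MUM2B was the lowest of the 6 MUM2B arrays. The decreases were −0.48 ± 0.12 in MUM2B (limma adjusted p = 0.0140) and −0.41 ± 0.12 in OCM1 (limma adjusted p = 0.0300). The MUM2B call was lost with the mean over all probe sets of the gene, without MUM2B CANT1 replicate 3 and without MUM2B wild type replicate 2 (limma adjusted p up to 0.129). The OCM1 call was lost without OCM1 CANT1 replicate 2, without OCM1 CANT1 replicate 3 and without OCM1 wild type replicate 2 (limma adjusted p up to 0.199). All 4 BRCA1 probe sets with a mean signal of at least 100 were lower in both lines. BARD1, its partner, stood at −0.07 ± 0.10 and −0.30 ± 0.10 without passing.

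RAD54L and RAD54B are motor proteins that move along DNA and act during strand exchange. RAD54L in MUM2B had a signal of 514, 460.2 and 409 on CANT1 arrays against 300.4, 567 and 543 on wild type arrays. The 2 later CANT1 arrays were below their wild type counterparts, at a difference of −0.33 ± 0.11 (limma adjusted p = 0.0435). The RAD54L call was lost with no filter, with array weights, with only the arrays compared, without MUM2B CANT1 replicate 3, without MUM2B wild type replicate 2, without MUM2B wild type replicate 3, without OCM1 CANT1 replicate 2 and without OCM1 CANT1 replicate 3 (limma adjusted p up to 0.257). RAD54B fell in OCM1 by 0.40 ± 0.13 (limma adjusted p = 0.0476). Without passing, RAD54L stood at −0.31 in OCM1 and RAD54B at −0.25 in MUM2B. The RAD54B call was lost with an offset of 16, with no filter, without MUM2B wild type replicate 2, without MUM2B wild type replicate 3, without OCM1 CANT1 replicate 2, without OCM1 CANT1 replicate 3, without OCM1 wild type replicate 2 and without OCM1 wild type replicate 3 (limma adjusted p up to 0.196).

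BLM, a helicase that resolves joined DNA molecules, had an OCM1 signal of 1219, 660.1 and 741 on CANT1 arrays against 1916, 973 and 923 on wild type arrays. On all 3 replicate numbers the CANT1 array was the lower one, and the decrease on replicates 2 and 3 was −0.42 ± 0.11 (limma adjusted p = 0.0199). The BLM call was lost without OCM1 CANT1 replicate 2, without OCM1 wild type replicate 2 and without OCM1 wild type replicate 3 (limma adjusted p up to 0.151). In MUM2B it stood at −0.28 ± 0.11 without passing. The other members of this group passed in neither line. PALB2, which links BRCA1 to its partners, was at 0.044 ± 0.094 in MUM2B and −0.083 ± 0.094 in OCM1. XRCC2 (−0.16 and 0.072) and XRCC3 (−0.066 and −0.022), given for MUM2B and then OCM1, also act in homologous recombination and did not pass. BRIP1, a helicase that binds BRCA1, was not tested there and had its highest signal, 322, on wild type replicate 1 of OCM1.

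Of the 7 Fanconi anaemia genes measured, 0 passed in MUM2B (background 25%) and 1 passed in OCM1 (14.3%, background 23.3%). FANCE, which joins the core ubiquitin ligase to its substrate, had an OCM1 signal of 419.9, 358 and 383 on CANT1 arrays against 579.6, 459 and 528 on wild type arrays. The CANT1 arrays were below the wild type arrays on all 3 replicate numbers, and replicates 2 and 3 differed by −0.38 ± 0.10 (limma adjusted p = 0.0174). The FANCE call was lost without OCM1 CANT1 replicate 2 and without OCM1 wild type replicate 3 (limma adjusted p up to 0.138). FANCL is the ligase subunit itself, and its signal was 1327, 981 and 768 on CANT1 arrays against 441, 979.6 and 1109.9 on wild type arrays of MUM2B. In OCM1 the FANCL signal was 2983, 3024 and 3185 on CANT1 arrays against 3321, 2554 and 2489 on wild type arrays. It lay on opposite sides of zero without passing in either line, at −0.26 ± 0.12 in MUM2B and 0.30 ± 0.12 in OCM1. FANCF, an adaptor of the core complex, had a signal of 542, 538 and 529 on CANT1 arrays against 478, 596 and 659.7 on wild type arrays of MUM2B. In OCM1 its signal was 487, 597 and 603 on CANT1 arrays against 218, 477 and 549 on wild type arrays, lowest on wild type replicate 1. It too lay on opposite sides of zero without passing (−0.22 ± 0.10 and 0.22 ± 0.10). FANCC, FANCG, FANCI and FANCM lay between −0.37 and 0.019 in MUM2B, and between −0.28 and −0.07 in OCM1.

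Among the damage kinases and sensors, the effector kinase CHEK2 was the member that rose in MUM2B. Its MUM2B signal was 357, 555 and 635 on CANT1 arrays against 412, 367 and 383 on wild type arrays. Replicates 2 and 3 with CANT1 exceeded every wild type array, while CANT1 replicate 1 was the lowest of the 6. The increase on replicates 2 and 3 was 0.62 ± 0.10, or 1.54-fold (limma adjusted p = 0.00190). The CHEK2 call was kept in all 18 alternatives. The second CHEK2 probe set read 0.11 there. Either probe set may also hybridise to similar transcripts, and CHEK2 has partial copies elsewhere in the genome, so its level is uncertain. In OCM1 the CHEK2 signal was 749, 777 and 869 on CANT1 arrays against 738, 945 and 939.6 on wild type arrays. The difference was −0.19 ± 0.10, without passing.

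NBN, which recruits ATM to breaks with RAD50, had a MUM2B signal of 3219, 2808 and 2429 on CANT1 arrays against 1625, 3835 and 3749.5 on wild type arrays. It was below wild type on replicates 2 and 3, at a difference of −0.53 ± 0.10 (limma adjusted p = 0.00409), and above it on replicate 1. The NBN call was lost with the mean over all probe sets of the gene (limma adjusted p up to 0.0716). In OCM1 the NBN signal was 1716, 1349 and 1478 on CANT1 arrays against 1824, 1191 and 1245 on wild type arrays. Replicates 2 and 3 with CANT1 were above wild type there, at 0.21 ± 0.10, without passing. RAD50 stood at −0.01 ± 0.091 in MUM2B and −0.15 ± 0.091 in OCM1. Its other probe sets with a mean signal of at least 100 both read −0.36 in MUM2B, and 0.13 and 0.018 in OCM1.

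ATR, the kinase of stalled forks, had a MUM2B signal of 759, 651 and 627 on CANT1 arrays against 615, 804 and 788 on wild type arrays. It fell by 0.30 ± 0.092 on replicates 2 and 3 (limma adjusted p = 0.0333). The ATR call was lost with only the arrays compared, without MUM2B CANT1 replicate 2, without MUM2B CANT1 replicate 3, without MUM2B wild type replicate 2 and without MUM2B wild type replicate 3 (limma adjusted p up to 0.162). In OCM1 it was at 0.01 ± 0.092. CHEK1, the kinase that ATR activates, fell in OCM1, where its signal was 842, 527 and 609.8 on CANT1 arrays against 1267, 751 and 876 on wild type arrays. The CANT1 array was the lower one at each replicate number, and the decrease on replicates 2 and 3 was −0.49 ± 0.13 (limma adjusted p = 0.0184), with all 6 bright probe sets below zero. The CHEK1 call was lost without OCM1 CANT1 replicate 2 and without OCM1 wild type replicate 3 (limma adjusted p up to 0.144). In MUM2B CHEK1 stood at −0.17 without passing, and its other bright probe sets ran from −0.46 to 0.047. ATM in MUM2B had a signal of 1222, 741 and 889.8 on CANT1 arrays against 2032, 783 and 761 on wild type arrays, highest on wild type replicate 1. ATM (0.07 ± 0.11 in MUM2B, 0.12 ± 0.11 in OCM1) and TP53BP1, which limits resection (−0.13 ± 0.11 and −0.07 ± 0.11), did not pass. In OCM1 the other bright ATM probe sets read −0.25, −0.34 and −0.48.

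For end joining, XRCC4, the partner of DNA ligase IV, fell in OCM1. The XRCC4 signal in OCM1 was 585, 413 and 376 on CANT1 arrays against 379, 523 and 585 on wild type arrays. It was lower with CANT1 on replicates 2 and 3, at a difference of −0.46 ± 0.10 (limma adjusted p = 0.00750), and higher on replicate 1. The XRCC4 call was lost without OCM1 CANT1 replicate 3 and without OCM1 wild type replicate 3 (limma adjusted p up to 0.0681). In MUM2B the XRCC4 signal was 622, 596 and 562 on CANT1 arrays against 392, 510.1 and 558 on wild type arrays. The difference there was 0.11 ± 0.10, without passing. The Ku subunits XRCC5 and XRCC6, which bind broken ends, stood at −0.10 ± 0.10 and −0.17 ± 0.093 in MUM2B and at −0.22 ± 0.10 and −0.20 ± 0.093 in OCM1, also without passing.

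In base excision and single-strand break repair, XRCC1 and PARP2 fell in OCM1 and neither passed in MUM2B. XRCC1 assembles the repair complex at nicks, and its OCM1 signal was 267, 236 and 272 on CANT1 arrays against 370.5, 342 and 393 on wild type arrays. All CANT1 arrays were below all wild type arrays, and the decrease on replicates 2 and 3 was −0.48 ± 0.10 (limma adjusted p = 0.00723). Only 2 of its 3 bright probe sets were below zero. The XRCC1 call was lost with the mean over all probe sets of the gene, without OCM1 CANT1 replicate 2 and without OCM1 wild type replicate 3 (limma adjusted p up to 0.218). In MUM2B the XRCC1 signal was 325, 357 and 388 on CANT1 arrays against 363, 295 and 302 on wild type arrays, a difference of 0.29 ± 0.10 on replicates 2 and 3 that did not pass. PARP2, which marks breaks with poly(ADP-ribose), had an OCM1 signal of 711, 728 and 679.8 on CANT1 arrays against 2153, 886 and 877 on wild type arrays. It too was lower on every CANT1 array, at a difference of −0.31 ± 0.090 on replicates 2 and 3 (limma adjusted p = 0.0279). The PARP2 call was lost without OCM1 CANT1 replicate 2, without OCM1 CANT1 replicate 3, without OCM1 wild type replicate 2 and without OCM1 wild type replicate 3 (limma adjusted p up to 0.146). In MUM2B the PARP2 signal was 1525, 1556 and 1505 on CANT1 arrays against 1163, 1379 and 1454 on wild type arrays, without overlap and with the CANT1 arrays above (0.11 ± 0.090 on replicates 2 and 3, without passing). PARP1, the main enzyme of that family, stood at −0.062 ± 0.088 in MUM2B and −0.0087 ± 0.088 in OCM1.

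Both tested mismatch repair genes fell in OCM1 (background 9.63% lower). EXO1, the exonuclease that removes the mismatched strand and also resects breaks, had an OCM1 signal of 944, 477 and 532 on CANT1 arrays against 1769, 728 and 834 on wild type arrays. In MUM2B the EXO1 signal was 420.2, 385 and 278 on CANT1 arrays against 96.2, 459 and 475 on wild type arrays. Both CANT1 arrays of replicates 2 and 3 lay below the wild type arrays of those replicates in each line, and on replicate 1 EXO1 was lower in OCM1 and higher in MUM2B. The differences were −0.60 ± 0.13 in OCM1 (limma adjusted p = 0.00876) and −0.47 ± 0.13 in MUM2B (limma adjusted p = 0.0256). The OCM1 call was lost without OCM1 CANT1 replicate 2 and without OCM1 wild type replicate 3 (limma adjusted p up to 0.0756). The MUM2B call was lost without MUM2B CANT1 replicate 3, without MUM2B wild type replicate 2 and without MUM2B wild type replicate 3 (limma adjusted p up to 0.231). MSH6, which recognises mismatches, had an OCM1 signal of 3496, 2137 and 2436 on CANT1 arrays against 5337, 3090.0 and 3036 on wild type arrays. It fell by 0.42 ± 0.12 (limma adjusted p = 0.0236), and in MUM2B it stood at −0.26 without passing. The MSH6 call was lost without OCM1 CANT1 replicate 2, without OCM1 wild type replicate 2 and without OCM1 wild type replicate 3 (limma adjusted p up to 0.176).

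The nucleotide excision genes lay above zero on replicates 2 and 3 in both lines, and ERCC1 passed in OCM1. Its signal there was 1404, 2433 and 2392 on CANT1 arrays against 949, 1836 and 1762 on wild type arrays. CANT1 exceeded wild type at every replicate number, and the increase on replicates 2 and 3 was 0.42 ± 0.093 (limma adjusted p = 0.00828). The ERCC1 call was lost without OCM1 CANT1 replicate 2 and without OCM1 wild type replicate 3 (limma adjusted p up to 0.0591). In MUM2B the ERCC1 signal was 1663, 2754 and 2497 on CANT1 arrays against 1218, 2476 and 2353 on wild type arrays, at 0.12 ± 0.093 without passing. The ERCC2 signal in OCM1 was 318, 608 and 579 on CANT1 arrays against 356, 464 and 534 on wild type arrays. ERCC2 was at 0.30 ± 0.10 in MUM2B (limma adjusted p = 0.0541) and 0.24 ± 0.10 in OCM1. ERCC3, the other helicase of the same complex, was at 0.071 ± 0.090 and 0.091 ± 0.090.

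**Figure D3:**
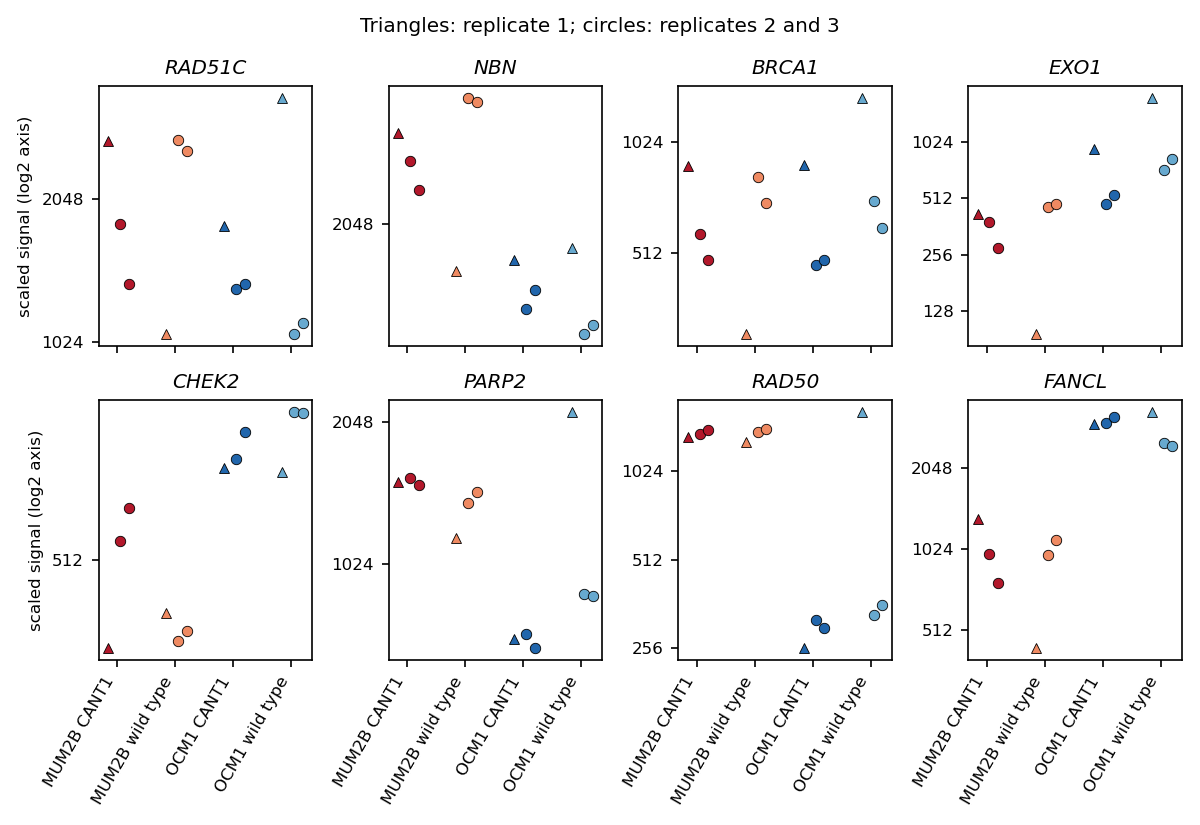
Scaled signal (vertical axis, log2 scale) of 8 repair genes in the 4 groups along the horizontal axis, with triangles for replicate 1 and circles for replicates 2 and 3. RAD51C, NBN, BRCA1 and EXO1 are low on the MUM2B wild type replicate 1 array, and PARP2 and RAD50 are high on OCM1 wild type replicate 1 only among the OCM1 arrays.

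The CANT1 effect differed between the lines for 8 of 34 members (23.5%) on replicates 2 and 3, a share near that of all genes (background 21.9% of all genes, with 11.3% higher and 10.6% lower). The OCM1 effect minus the MUM2B effect was 1.03 ± 0.18 for RAD51C (limma adjusted p = 0.00281) and 0.74 ± 0.14 for NBN (limma adjusted p = 0.00490). It was −0.81 ± 0.14 for CHEK2 (limma adjusted p = 0.00304) and −0.77 ± 0.15 for XRCC1 (limma adjusted p = 0.00474). FANCL (0.55 ± 0.17) and FANCF (0.44 ± 0.14) made up the 4 with a higher effect in OCM1, and XRCC4 (−0.57 ± 0.14) and PARP2 (−0.42 ± 0.13) the 4 with a lower one. BRCA1 and EXO1, lower in both lines, differed by 0.074 ± 0.17 and −0.12 ± 0.19 without passing. On replicate 1 the CANT1 difference in OCM1 and in MUM2B was −0.89 and 1.32 for RAD51C and −0.087 and 0.97 for NBN. It was 0.02 and −0.19 for CHEK2 and −0.15 and 1.52 for FANCL, so for these genes the lines stood in the other order there. The order was kept for PARP2 (−1.56 and 0.38), XRCC1 (−0.43 and −0.15), FANCF (1.05 and 0.17) and, narrowly, XRCC4 (0.587 and 0.624).

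RAD51C and CHEK2 kept that call in all 17 alternatives. NBN and XRCC1 lost it in 1 each, with the mean over all probe sets (limma adjusted p = 0.283 for NBN). FANCF lost it in 9, FANCL and PARP2 in 8 each and XRCC4 in 4. PARP2 lost it on leaving out any of the 8 arrays. The count of 4 higher was 2 without MUM2B CANT1 replicate 3, MUM2B wild type replicate 3, OCM1 CANT1 replicate 2, OCM1 CANT1 replicate 3 or OCM1 wild type replicate 2. Over all genes, 1364 were higher, and 895 to 1123 without 1 of these arrays. The count of 4 lower was 2 without MUM2B wild type replicate 2, OCM1 CANT1 replicate 3 or OCM1 wild type replicate 3. Over all genes, 1286 were lower, and 793, 920 and 758 without these arrays in turn.

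Replicate 1, with 1 array per group and no test, gave another picture in MUM2B. There 29 of 35 repair genes were higher with CANT1 than in wild type (median 0.47), as were 39.6% of all genes. Of the 7 members that passed on replicates 2 and 3, 0 had the same sign on replicate 1, against 12.5% of all genes that passed. EXO1 stood at 1.82, BRCA1 at 1.41, RAD51C at 1.32 and CHEK2 at −0.19. In OCM1, 24 of 35 were lower with CANT1 on replicate 1 (median −0.30), and 10 of the 11 members that passed on replicates 2 and 3 kept their sign, XRCC4 being the exception, against 39.3% of all genes that passed. These replicate 1 differences in OCM1 rest on wild type replicate 1, the array that stood apart. Taken across 34 genes, which are not independent of each other, replicate 1 and the later replicates correlated in their differences at r = −0.60 in MUM2B and 0.27 in OCM1.

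**Figure D4:**
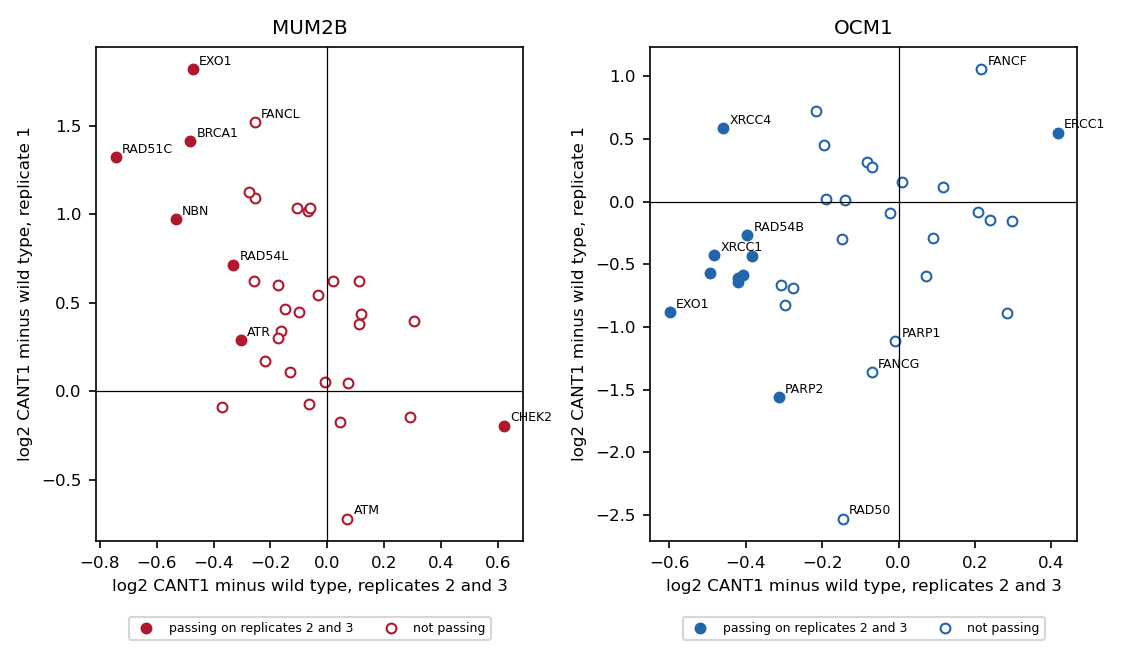
CANT1 minus wild type on replicate 1 (vertical axis, 1 array per group) against replicates 2 and 3 (horizontal axis), both in log2, for 34 repair genes in MUM2B (left) and OCM1 (right), with filled points for genes passing on replicates 2 and 3. In MUM2B the 7 filled points lie in quadrants of opposite sign, and in OCM1 10 of 11 lie in quadrants of equal sign.

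The difference between the labelled sets could be tested by assuming that the single replicate 1 arrays vary like the others. In MUM2B the CANT1 effect on replicate 1 minus that on replicates 2 and 3 passed for 21 members above zero and 2 below, of 35 (background 35.8%, with 17.7% above and 18.1% below). The 4 with the highest values were EXO1 (2.29 ± 0.23), RAD51C (2.07 ± 0.22), BRCA1 (1.90 ± 0.21) and FANCL (1.78 ± 0.21). CHEK2 (−0.81 ± 0.18) and ATM (−0.79 ± 0.19) lay on the other side. On replicate 1 of MUM2B the ATM probe set in use read −0.72, while its other bright probe sets read −0.038, −0.064 and −0.39. The second CHEK2 probe set read −0.17 on replicate 1 and 0.11 on replicates 2 and 3. The median of the members was 0.58, against −0.088 over all genes. Of the 10 recombination genes 8 passed above zero, and of the 3 nucleotide excision genes 0 passed.

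The MUM2B wild type replicate 1 array had the lowest mean level of these genes and of proliferation genes among the MUM2B arrays. The mean log2 level of the tested members was 9.06 on it, against 9.62 on CANT1 replicate 1, 9.55 and 9.44 on the other CANT1 arrays and 9.63 and 9.60 on the other wild type arrays of MUM2B. For 25 proliferation genes it was 10.07 there and 10.70 to 11.16 on the other MUM2B arrays. The part of proliferation, growth conditions or RNA integrity in these differences was not tested.

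In OCM1 the sets differed for 12 members, 4 above zero and 8 below (background 48.2%, with 20.5% above and 27.6% below), in a comparison that rests on wild type replicate 1, the array that stood apart. RAD50 (−2.38 ± 0.16), FANCG (−1.29 ± 0.24) and PARP2 (−1.24 ± 0.16) had the lowest values. XRCC4 (1.05 ± 0.17) and XRCC5 (0.94 ± 0.18) had the highest. The XRCC5 value depends on the probe set in use, which read 0.72 on replicate 1 of OCM1 and −0.22 on the later replicates. The other XRCC5 probe set, with a mean signal of 1838, read −0.29 on replicate 1 and −0.34 on the later replicates. The median of all genes was −0.10 in this contrast, and −0.18 for the members. On wild type replicate 1 of OCM1, PARP2 read 2153 and RAD51C 3348, above every other array. FANCG read 484 on that array, above the 149 to 202 of the other OCM1 arrays. The comparison cannot be made without it.

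The 2 wild type lines differed in several repair genes. With all arrays, OCM1 was above MUM2B for 10 and below it for 3 of 35 members (background 33%, with 19.1% above and 13.9% below). All 13 were called in the same direction on replicates 2 and 3 alone, where 64.7% of all genes were called. Those 8 arrays are among the 12 of the first fit, so this is not separate evidence. The share of all genes that kept their call was not computed. The 3 arrays of each line did not overlap for 11 members (background 32.7%, with 19% higher and 13.7% lower), 10 higher and 1, ATR, lower in OCM1. The comparisons between lines share their wild type arrays with those between CANT1 and wild type.

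FANCL had a signal of 3321, 2554 and 2489 in OCM1 and 441, 979.6 and 1109.9 in MUM2B wild type cells. OCM1 was above MUM2B on every array, by 1.77 ± 0.32, or 3.42-fold (limma adjusted p = 0.00239). FANCI, the partner of FANCD2 that is ubiquitinated at crosslinks, had a signal of 2066, 2083 and 2207 in OCM1 and 361, 995 and 957 in MUM2B wild type cells. It differed by 1.55 ± 0.27 (limma adjusted p = 0.00197). CHEK2, at 1.10 ± 0.16, and PALB2, at 0.60 ± 0.13, were higher in OCM1 too (limma adjusted p = 0.000715 and 0.00584). PALB2 had a signal of 785, 871 and 875 in OCM1 and 667, 470.2 and 511 in MUM2B wild type cells. FANCL, FANCI, CHEK2 and PALB2 kept the call in all 22 alternatives.

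PARP1 had a signal of 4523, 3229 and 3102 in OCM1 and 699, 2057 and 2149.7 in MUM2B wild type cells. The groups did not overlap, but the MUM2B replicate 1 array was far below the other MUM2B arrays, and the difference was 1.27 ± 0.33 with all arrays and 0.58 ± 0.088 on replicates 2 and 3. EXO1 showed the same, at 1.74 ± 0.54 with all arrays (limma adjusted p = 0.0344) and 0.70 ± 0.13 on replicates 2 and 3. The EXO1 call with all arrays was lost with no filter, with the replicate block, without MUM2B CANT1 replicate 2, without OCM1 CANT1 replicate 3, without OCM1 wild type replicate 1 and without OCM1 wild type replicate 3 (limma adjusted p up to 0.0977). BLM had a signal of 1916, 973 and 923 in OCM1 and 342, 646 and 695 in MUM2B wild type cells. It stood at 1.11 ± 0.34, and it was lost without wild type replicate 1 or 2 of OCM1. MSH6 (0.96 ± 0.22), FANCE (0.72 ± 0.16) and TP53BP1 (0.58 ± 0.15) completed the 10. TP53BP1 was lost without wild type replicate 2 of either line.

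NBN, ATR and ERCC1 were lower in OCM1. NBN had a signal of 1824, 1191 and 1245 in OCM1 and 1625, 3835 and 3749.5 in MUM2B wild type cells. The groups overlapped through the MUM2B replicate 1 array, and the difference was −1.02 ± 0.32 with all arrays and −1.61 ± 0.10 on replicates 2 and 3 (limma adjusted p = 0.0333 and 5.78e-08). ATR had a signal of 541, 483 and 537 in OCM1 and 615, 804 and 788 in MUM2B wild type cells. ATR differed by −0.47 ± 0.14 (limma adjusted p = 0.0276) and ERCC1 by −0.40 ± 0.11 (limma adjusted p = 0.0180). The count of 3 lower was 0 without MUM2B wild type replicate 2 or 3, 1 without OCM1 wild type replicate 2 or 3, 5 without MUM2B wild type replicate 1 and 6 without OCM1 wild type replicate 1. Over all genes, 1765 were lower, and 1301, 1247, 1296, 1309, 2172 and 2547 without these arrays in turn.

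Leaving out OCM1 wild type replicate 1 gave 9 members above and 6 below of 34 (background 44%, with 23.8% above and 20.2% below). RAD50 then stood at −1.93 ± 0.10 (limma adjusted p = 5.20e-07), FANCG at −0.80 ± 0.19, PARP2 at −0.60 ± 0.11 and ATM at 0.71 ± 0.24. With that array RAD50 was at −1.17 ± 0.44 and did not pass (limma adjusted p = 0.0664). RAD50 had a signal of 1630.1, 332 and 359.8 in OCM1 and 1287, 1389 and 1419.8 in MUM2B wild type cells. Its 3 bright probe sets ran from −2.30 to −1.68 on replicates 2 and 3.

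On replicates 2 and 3 alone, 12 members were higher and 10 lower in OCM1 of 34 (background 64.7%, with 35.2% higher and 29.5% lower). RAD50 (−1.93 ± 0.091), NBN and RAD51C (−1.25 ± 0.12) had the largest decreases, followed by FANCG (−0.93 ± 0.14), CHEK1 (−0.74 ± 0.13) and PARP2 (−0.66 ± 0.090). CHEK1 had a signal of 1267, 751 and 876 in OCM1 and 610.3, 1321 and 1428 in MUM2B wild type cells. FANCG, a scaffold of the Fanconi core complex, had a signal of 484, 151 and 202 in OCM1 and 241, 393 and 334 in MUM2B wild type cells, with OCM1 replicate 1 above the MUM2B arrays. The largest increases were those of CHEK2 (1.26 ± 0.10), FANCL (1.25 ± 0.12), FANCI (1.11 ± 0.10), ATM (0.92 ± 0.11), PALB2 (0.79 ± 0.094) and TP53BP1 (0.73 ± 0.11). ATM had a signal of 1742, 1578 and 1413 in OCM1 and 2032, 783 and 761 in MUM2B wild type cells. TP53BP1 had a signal of 231, 399 and 331 in OCM1 and 185, 202 and 209 in MUM2B wild type cells. For RAD51C the line difference depends on the set, since its signal was 3348, 1067 and 1123 in OCM1 and 1066, 2727 and 2585 in MUM2B wild type cells. All 7 damage kinases and sensors passed here, 3 higher and 4 lower, while 0 of the 3 end joining genes did. For XRCC5 this depends on the probe set in use, at −0.063. The second XRCC5 probe set, with a mean signal of 1838, read −0.76.

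**Figure D5:**
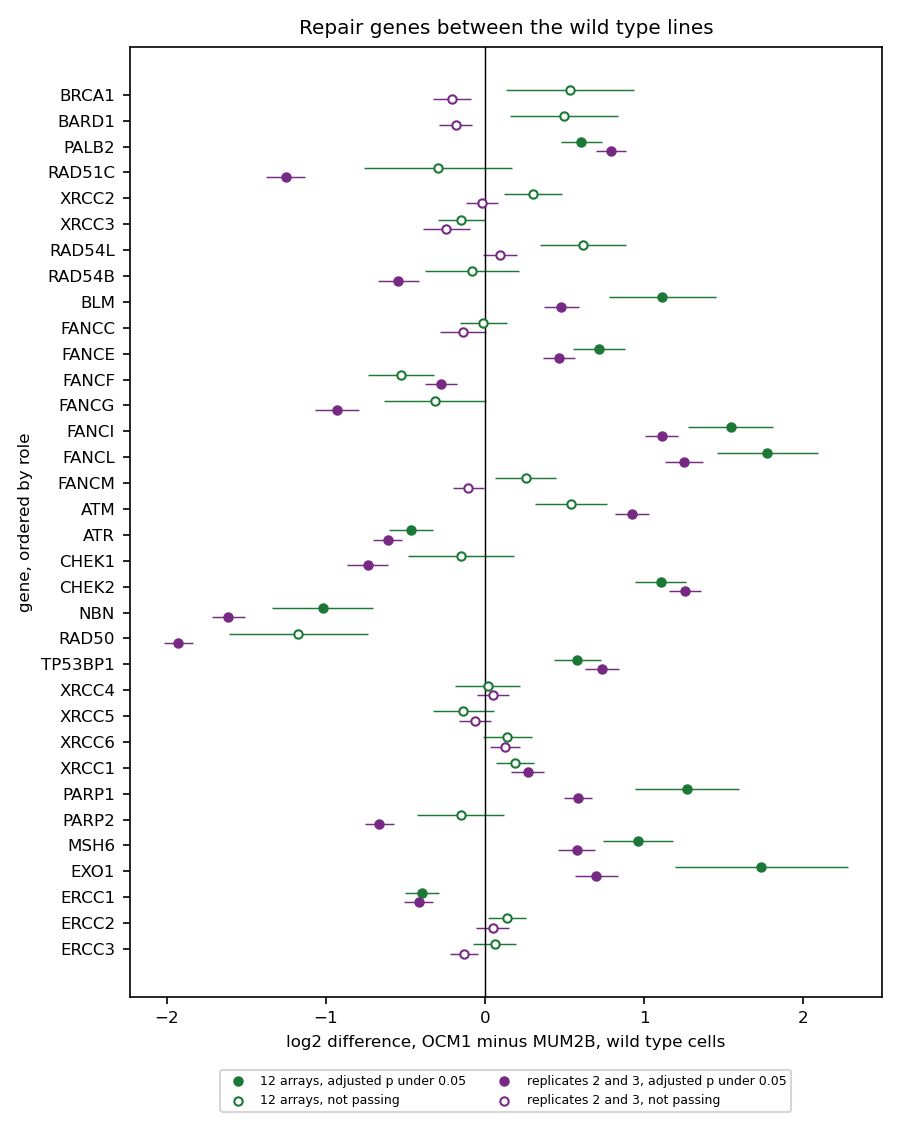
OCM1 minus MUM2B in wild type cells, in log2, for 34 repair genes ordered by role, with all 12 arrays in the fit (green) and replicates 2 and 3 only (purple), bars for the standard error and filled points for a limma adjusted p under 0.05. FANCL, FANCI and CHEK2 lie above 1 in both, and RAD50 is at −1.93 on replicates 2 and 3, against −1.17 with all arrays.

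Between the overexpressing lines, with all arrays, 6 members were higher and 4 lower in OCM1 of 35 (background 37.2%, with 21.2% higher and 16.1% lower). RAD50 stood at −2.12 ± 0.44 (limma adjusted p = 0.00423). Its signal was 256, 319 and 299.9 in OCM1 and 1336, 1370.0 and 1419 in MUM2B CANT1 cells, without overlap. In all, 16 members did not overlap between these groups (background 51.5%, with 29.4% higher and 22.2% lower), 9 higher and 7 lower. PARP2 (−1.08 ± 0.27), FANCG (−1.04 ± 0.32) and XRCC1 (−0.42 ± 0.12) were lower as well. FANCL (1.58 ± 0.32), FANCI (1.18 ± 0.27), ATM (0.85 ± 0.23), PALB2 (0.68 ± 0.13), TP53BP1 (0.68 ± 0.15) and CHEK2 (0.63 ± 0.16) were higher. The count of 4 lower was 2 without MUM2B CANT1 replicate 2 or 3 or OCM1 CANT1 replicate 2, and 8 without MUM2B wild type replicate 1. Without that last array the count of 6 higher was 10. Over all genes, 2045 were lower, and 1487, 1531, 1607 and 2436 without these arrays in turn. Higher were 2691 of all genes, and 3236 without MUM2B wild type replicate 1. Without OCM1 wild type replicate 1 the counts were 7 higher and 5 lower of 34 (background 48.5%, with 27.2% higher and 21.2% lower).

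Other repair genes, a list of 93 of which 86 were tested on replicates 2 and 3, were also more often lower than higher with CANT1. In MUM2B 25 were lower and 2 higher, with a median of −0.15 (31.4% called, background 25%, with 10.7% lower and 14.4% higher). TIPIN, which steadies stalled forks (−1.07 ± 0.15), BRCC3, a deubiquitinase of the BRCA1 complex (−0.87 ± 0.11), the uracil glycosylase UNG (−0.85 ± 0.14) and RAD51AP1 (−0.81 ± 0.17) fell most, and the glycosylase NTHL1 (0.46 ± 0.12) and SMC6 (0.39 ± 0.10) rose. On replicate 1 of MUM2B all 6 of these had the opposite sign (TIPIN 1.90, BRCC3 0.86, UNG 1.47, RAD51AP1 2.02). There 2 of the 27 that passed kept their sign (7.41%, against 12.5% of all genes that passed), and 61 of 87 were higher with CANT1 (70.1%, against 39.6%). In OCM1 15 were lower and 3 higher, with a median of −0.047 (20.9% called, background 23.3%, with 9.63% lower and 13.7% higher). HUS1, part of the clamp that activates ATR (−0.81 ± 0.09), UNG (−0.72 ± 0.14), RMI2 (−0.58 ± 0.13) and FANCB (−0.45 ± 0.13) fell, and LIG4, the ligase that works with XRCC4 (0.50 ± 0.11), TDG (0.46 ± 0.11) and XPA (0.45 ± 0.10) rose. On replicate 1 of OCM1, which rests on the wild type array that stood apart, 13 of the 18 kept their sign (72.2%, against 39.3% of all genes that passed). HUS1 (0.77), TDG (−1.03) and XPA (−1.47) did not. Between the wild type lines 18 of 87 were higher and 8 lower in OCM1 with all arrays (29.9%, against a background of 33%), with MGMT, which removes alkyl groups from guanine, at 2.27 ± 0.55.

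Proliferation genes differed in the same comparisons. On replicates 2 and 3, 11 of 25 were lower and 1 was higher in MUM2B, and 18 were lower and 0 higher in OCM1, where the median was −0.52. Of all genes 10.7% were lower and 14.4% higher in MUM2B, and 9.63% and 13.7% in OCM1. In OCM1, CANT1 replicates 2 and 3 had a mean log2 level of 10.22 and 10.33, and wild type replicates 2 and 3 one of 10.75 and 10.76. On replicate 1 of MUM2B 25 of 25 were higher with CANT1, as were 39.6% of all genes. Replicates 2 and 3 had a 3′ over 5′ signal of ACTB, in log2, of 0.909 and 0.843 in CANT1 OCM1 cells and 0.749 and 0.664 in wild type OCM1 cells. In MUM2B these values were 0.525 and 0.583 with CANT1 and 0.549 and 0.472 in wild type. The part of proliferation or RNA integrity in the repair gene differences was not tested.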

How the data were processed

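The deposited values are log2 array signals, made with MAS5 per the submitters' processing notes, and the version and scaling are not given in the sources used here. The base of the deposited log2 values was read from their range. For the results above they were returned to linear signal, scaled on each array to a mean of 500 after trimming 2% at each end, given an offset of 32 and taken to log2 again. Of 49395 probe sets, 44988 were annotated to 1 gene, 1832 to several and 2473 to none, and 102 were controls. The brightest of a gene's probe sets was used, and 10 members had only 1. Genes that reached 100 on 3 or more arrays were tested.

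Limma 3.58.1 in R 4.3.3 was fitted to 12 arrays with group and labelled set as terms (7 residual degrees of freedom), to the 8 arrays of replicates 2 and 3, and to 12 arrays with group and set combined (4 degrees of freedom each). P-values were adjusted by Benjamini-Hochberg over all genes at 0.05. The fits were tested on simulated data with planted changes, where false calls made up 1.76% to 5.20% of calls. Noise was drawn independently per gene and array, so shifts of a whole array were not simulated. For the fit with group and set combined, the spread came from replicates 2 and 3 only, and replicate 1 was given the same spread. These shares therefore do not cover arrays that stand apart. Alternatives were quantile normalization, offsets of 16 and 64, no filter, a filter on 6 arrays, the mean of a gene's probe sets, an intensity trend, array weights, no set term, a replicate block, only the arrays compared, a 1.5-fold minimum, and leaving out each array.

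The members and gene lists were chosen with earlier results of these data known. Array values are given for up to 6 members per direction with the largest changes past the threshold, and for those with the 3 smallest p-values where none passed. Of other repair genes up to 4 per direction are named. Of the array's probe sets for members, 8 in use are of a type that can bind related transcripts.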

Additional observations from a re-analysis of the deposited data

Results flagged for a closer look

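The CANT1 effect on replicates 2 and 3 differed between the lines for 8 of 34 repair genes, by limma's test of the difference itself. The OCM1 effect minus the MUM2B effect was 1.03 for RAD51C, 0.74 for NBN, 0.55 for FANCL and 0.44 for FANCF. It was −0.81 for CHEK2, −0.77 for XRCC1, −0.57 for XRCC4 and −0.42 for PARP2. These are 23.5% of the members, near the 21.9% of all genes that passed the same test. On replicate 1, which has 1 array per group and no test, the lines stood in the other order for RAD51C (−0.89 in OCM1 and 1.32 in MUM2B). The same held for NBN (−0.087 and 0.97), CHEK2 (0.02 and −0.19) and FANCL (−0.15 and 1.52). The order was kept for PARP2 (−1.56 and 0.38), XRCC1 (−0.43 and −0.15), FANCF (1.05 and 0.17) and, narrowly, XRCC4 (0.587 and 0.624).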

How the results depend on the processing

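With array weights, the counts of members higher and lower with all arrays were 2 and 3 in MUM2B, 1 and 12 in OCM1 and 3 and 5 for the difference between their effects, 10 were lower in wild type OCM1 than in MUM2B, and 10 were higher and 13 lower between the CANT1 lines. With the same weights 1402 genes were higher and 1000 lower in MUM2B and 2151 higher and 1562 lower in OCM1, of 12715. For the difference between effects 1526 genes were higher and 1382 lower, and 3829 were lower between the wild type lines. Between the CANT1 lines 5029 genes were higher and 3752 lower. Asking for at least 1.5-fold as well left 1 lower between wild type lines with all arrays, 7 higher between them on replicates 2 and 3, 1 lower in MUM2B, 0 higher and 1 lower in OCM1, and 2 higher and 2 lower for the difference between effects. The share of all genes at that minimum was not computed. On replicates 2 and 3, members higher in MUM2B numbered 2 with an offset of 64 or a filter on 6 arrays and 3 with the replicate block, and members higher in OCM1 numbered 3 with only the arrays compared. Over all genes these counts were 1803 of 12105, 1605 of 10713 and 1814 of 12105 in MUM2B, and 1608 of 11380 in OCM1. For the difference between effects, 2 were higher with no filter, and 2 were higher and 2 lower with the mean over all probe sets, which also gave 8 higher for the difference between sets in OCM1. Over all genes 1398 of 18132 were higher with no filter. With the mean over all probe sets 1406 were higher and 1416 lower of 11259, and 2750 of 11818 were higher between sets in OCM1. The cause of these shifts was not tested.

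Leaving out each array gave 0 to 6 members lower between wild type lines with all arrays, 5 to 10 higher and 2 to 8 lower between CANT1 lines, 1 to 2 higher and 2 to 9 lower in MUM2B, 0 to 3 higher and 1 to 11 lower in OCM1, and 2 to 3 higher and 2 to 3 lower for the difference between effects on replicates 2 and 3. Over all genes 1247 to 2547 were lower between wild type lines, and 1964 to 3431 higher and 1487 to 2675 lower between CANT1 lines. In MUM2B 652 to 1755 of all genes were higher and 361 to 1311 lower. In OCM1 these ranges were 858 to 1715 and 475 to 1229, and for the difference between effects 895 to 1367 and 758 to 1339. ATM with all arrays of MUM2B ran from −0.34 to 0.15 when an array was left out and was 0.019 with array weights, and its difference between effects ran from −0.032 to 0.48.

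The replicate numbers were not taken to pair the samples: differences between replicates 2 and 3 correlated between groups at r = −0.12 to 0.22. The replicate block changed no other count of members by more than 1.5 times. Across scalings and offsets, the median of all genes lay over 0.1 from zero only for the difference between sets in OCM1, at −0.10, or −0.11 with an offset of 16 and −0.024 with quantile normalization. With 2 arrays per group, 27.7% (MUM2B) and 37.5% (OCM1) of changes of log2 0.5 were found on simulated arrays without shifts of a whole array.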

Other observations

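The probe sets of a gene did not always read the same difference. For NBN in MUM2B on replicates 2 and 3, the 5 probe sets with a mean signal of at least 100 read −0.53, −0.39, −0.067, −0.032 and 0.041, whereas between the wild type lines all 5 lay between −1.68 and −1.29. For XRCC1 in OCM1 the 3 probe sets read −0.48, −0.090 and 0.15. For RAD51C in MUM2B the 3 bright probe sets lay between −0.74 and −0.61.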
